A study of Mus musculus with 9 samples.

Results

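Ctcf, Ripor1 and Carmil2 are neighbouring genes on mouse chromosome 8, and they were selected on their H3K27ac contact level. The rule named these 3 genes because they stood among the genes with most H3K27ac contacts, out of 21631 protein-coding genes on chromosomes 1 to 19 and X. The H3K27ac values below are therefore a description, and no test was run on them. Contacts came from HiChIP, in which chromatin is cut and religated in the nucleus and then immunoprecipitated, and each read pair reports 2 DNA segments that lay close together near the protein or mark pulled down. It was done on live CD4+ CD8+ double-positive thymocytes sorted from thymus, the stage at which developing T cells rearrange and test their T cell receptor. H3K27ac libraries, made with an antibody to acetylated histone H3, found at promoters and enhancers in use, came from NOD/ShiLtJ mice (2 biological replicates) and C57BL/6J mice (2 biological replicates), here NOD and BL6. Smc1 libraries, made with an antibody to a cohesin subunit, came from NOD (2 technical replicates of 1 biological replicate), from BL6 (2 technical replicates of 1 biological replicate) and from a cross of NOD/ShiLtJ and C57BL/6 (F1, 1 library). The deposited table of Smc1 BL6 library 2 is named as combined, with a pair of run numbers that differ from that of BL6 library 1, and it was used as 1 library. It held fewer read pairs than library 1 at 25.5% of 19556 genes, and what was pooled is not given in the sources used here. None of these mice carried an introduced allele or received an agent according to the labels, which give no age. For the 4 H3K27ac samples, title and antibody field disagree, the title giving Smc1, and the groups follow the antibody field.

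CTCF is a zinc finger protein that binds DNA at insulator and loop-anchor sites, and it halts the cohesin ring, of which Smc1 is part, as the ring extrudes a chromatin loop. Ripor1 encodes a protein with a role in cell polarity. Carmil2, also called Rltpr, encodes a capping protein regulator that links actin to the CD28 costimulatory receptor in T cells. Thymocyte identity was looked at through contacts only, which are not expression. All 11 marker genes of double-positive thymocytes had listed contacts in all 4 H3K27ac libraries, with a summed level of 1176 to 3012 read pairs per 1000000 used read pairs (CPM). So did 5 of 5 B cell markers (1143 to 1942) and 4 of 4 thymic epithelial markers (99.8 to 273), and 2 of 4 myeloid markers did (143 to 291 over the list). The part of other cells in the contacts of the 3 genes was not tested.

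On GRCm38, Ripor1 lies at chr8:105594087-105622219, Ctcf at chr8:105636474-105682922 and Carmil2 at chr8:105686010-105698195. The gap between the Ripor1 and Ctcf gene bodies is 14254 bp, and that between Ctcf and Carmil2 is 3087 bp. An interaction was given to a gene when either of its anchors, the segments that the authors tested for contact, overlapped the gene body or the 5 kb on each side. The Ctcf and Carmil2 windows overlap by 6913 bp, and the Carmil2 window also takes in the starts of Acd and Pard6a, so the 3 genes share part of their read pairs. Per gene, a window covers 56.4 kb for Ctcf, 38.1 kb for Ripor1 and 22.2 kb for Carmil2.

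The start regions of Ctcf and Ripor1 are shown, each as the 250 bases before the start site that RefSeq lists on GRCm38.p6, plus strand, 5′ to 3′. The segment at this Ripor1 start held few contacts, at most 28 listed read pairs in any H3K27ac library. Capitals mark CCCTC, the letters for which CTCF is named, and AGGGGGC, a common spelling of the centre of its recognition sequence, on either strand. Neither motif contains the other, but they can share letters. The Ctcf stretch is chr8:105636288-105636537 and lies inside the strongest H3K27ac contact of the region. The Ripor1 stretch is chr8:105604979-105605228 and lies inside the annotated gene body.
Ctcf: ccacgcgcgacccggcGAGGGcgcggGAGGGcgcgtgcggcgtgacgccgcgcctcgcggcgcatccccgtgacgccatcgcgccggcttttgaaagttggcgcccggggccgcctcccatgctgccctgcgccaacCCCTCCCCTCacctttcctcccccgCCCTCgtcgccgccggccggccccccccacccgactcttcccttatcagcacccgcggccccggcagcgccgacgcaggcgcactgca
Ripor1: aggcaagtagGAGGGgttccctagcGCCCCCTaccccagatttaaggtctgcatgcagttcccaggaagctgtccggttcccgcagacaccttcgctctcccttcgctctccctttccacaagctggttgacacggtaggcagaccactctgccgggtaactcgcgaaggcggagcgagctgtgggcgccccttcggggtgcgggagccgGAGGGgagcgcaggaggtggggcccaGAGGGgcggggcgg
The Ctcf stretch holds CCCTC at 5 places and no AGGGGGC, and the Ripor1 stretch holds CCCTC at 3 places and AGGGGGC at 1. Over 32851 listed starts of the same length, 60.5% hold CCCTC and 9.43% hold AGGGGGC. The Ctcf stretch is 77.6% G and C with 40 CpG dinucleotides, and the Ripor1 stretch is 66.8% with 18, where the median listed start has 52.4% and 6. These letters describe the windows and do not show binding.

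The used read pairs, from interactions with anchor midpoints at least 10 kb apart, numbered 381010 and 497751 in the NOD and 440901 and 1203808 in the BL6 H3K27ac libraries. The Smc1 libraries held 1663366 and 1484554 in NOD, 1899789 and 2620662 in BL6, and, for the F1 library, 791859 when mapped to the NOD and 765188 when mapped to the BL6 genome. At the 3 genes, H3K27ac BL6 library 1 stood far above the other H3K27ac libraries, and Smc1 NOD library 2 stood below the other Smc1 libraries. Chromosome 8 as a whole carried similar shares of each library, 4.73% to 5.89% in H3K27ac and 4.79% to 5.31% in Smc1, F1 included. The excess of H3K27ac BL6 library 1 was not confined to the 3 genes. Its summed level over the 11 double-positive markers was also the highest, at 3012 CPM. BL6 library 2 had 1540 there, and the NOD libraries 1176 and 2103. Over the B cell, myeloid and thymic epithelial markers BL6 library 1 was not the highest. The cause was not tested. Mean levels, ranks and mean shares in H3K27ac are given with and without BL6 library 1. Only interactions with at least 2 read pairs and an authors' q up to 0.05 are in the tables, so a contact that is not listed was not measured as 0. It was under that limit, or an end of it was not among the anchors tested, and these cannot be told apart here. In sorted bulk cells, fewer cells with a contact and fewer contacts per cell cannot be told apart.

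Ctcf, which encodes the loop-anchor protein itself, had a mean H3K27ac level of 369 CPM over the 4 libraries, against 348 for Ripor1 and 254 for Carmil2, but without BL6 library 1 it stood below Ripor1, at 234 against 264. It had 304 and 287 CPM in the NOD libraries, against 776 and 109.7 in the BL6 libraries. The NOD libraries lay between the BL6 libraries, so the strains overlapped. The underlying counts were 116 and 143 read pairs in NOD and 342 and 132 in BL6.

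Ripor1 had 255 and 372 CPM in the NOD H3K27ac libraries, against 601 and 166 in the BL6 libraries. Carmil2 had 163 and 125 in the NOD libraries, against 628 and 98.9 in the BL6 libraries. In each of the 3 genes both NOD values fell between the BL6 values, and the spread between the BL6 replicates exceeded the distance between the strain means. For Carmil2 the mean was 144 ± 26.99 in NOD and 364 ± 374 in BL6 (SD, n = 2 each).

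In Smc1, Ctcf had 92.0 and 33.0 CPM in NOD, 98.4 and 54.9 in BL6, and 93.5 and 115 in the F1 library, mapped to the NOD and to the BL6 genome in that order. Ripor1 had 92.6 and 41.8 in NOD, 110.0 and 67.9 in BL6, and 90.9 and 88.9 in F1 on the NOD and the BL6 genome. Carmil2 had 55.3 and 33.7 in NOD, 90.5 and 60.3 in BL6, and 37.9 and 58.8 in F1 on the NOD and the BL6 genome. Every H3K27ac value of each gene lay above every NOD and BL6 Smc1 value of that gene. The genes were chosen for high H3K27ac level, which favours this order, and the share of all genes that show it was not computed. F1 Smc1 values of Ctcf on the BL6 genome lay above its value in H3K27ac BL6 library 2, and there the antibodies overlapped. The H3K27ac and Smc1 levels are shares of different pulldowns, and the H3K27ac tables are shallower.

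**Figure D1:**
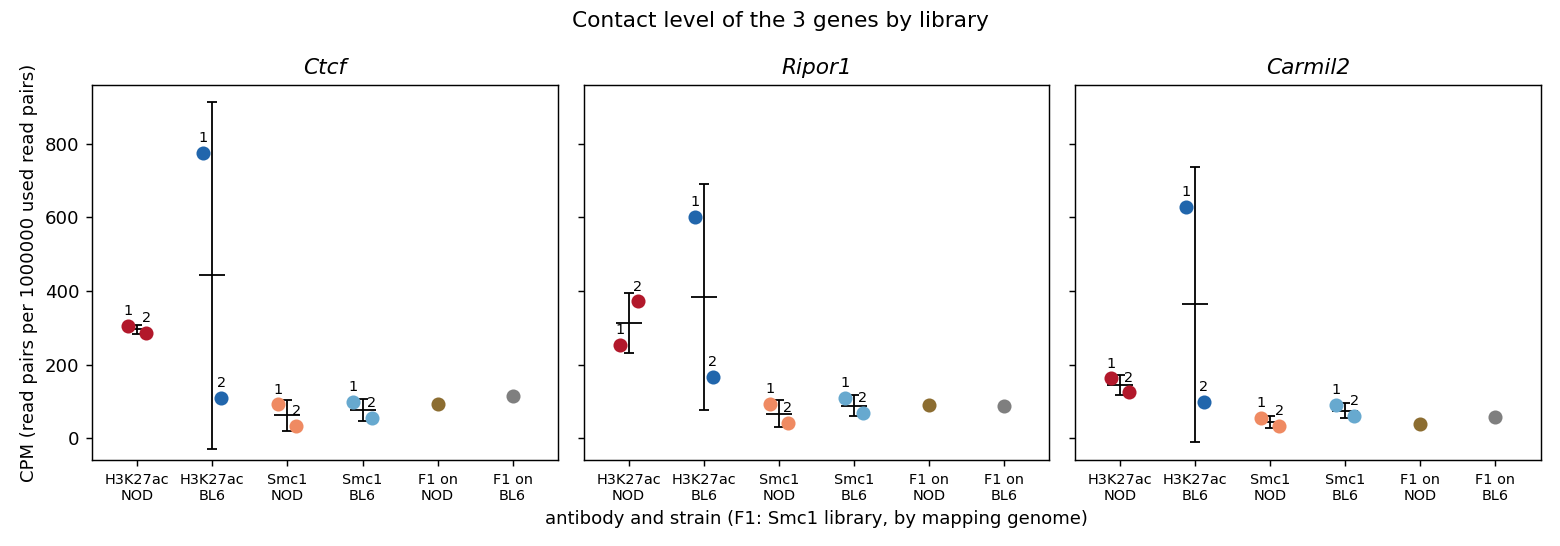
Read pairs per 1000000 used read pairs (CPM, vertical axis) at Ctcf, Ripor1 and Carmil2 in each library (points, numbered by replicate), with the mean and SD of each group of 2 as a bar; the F1 library is shown on each mapping genome. H3K27ac BL6 library 1 stands highest in each panel, at 776, 601 and 628, and both NOD H3K27ac libraries lie between the BL6 ones.

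How high the genes rank depended on the window. By total level over the gene body with 5 kb on each side, where long genes lead, Ctcf ranked 433rd, Ripor1 491st and Carmil2 925th in mean H3K27ac of the 21631 genes, at 369, 348 and 254 CPM, and the median gene had 33.7. By level per kb of window they ranked 37th, 10th and 6th, at 6.54, 9.14 and 11.4 CPM per kb. Counted only within 5 kb of the gene ends, they ranked 5th, 6th and 9th at 314, 304 and 245 CPM. By that last measure Tmem267 stood just above Ctcf at 335, Bcl11b and Cd6 stood between Ripor1 and Carmil2 at 270.3 and 258, and Il21r stood just below Carmil2 at 243. Bcl11b encodes a transcription factor of T cell commitment and Cd6 a T cell surface receptor.

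Leaving out H3K27ac BL6 library 1 lowered the means to 234 for Ctcf, 264 for Ripor1 and 129 for Carmil2 over the gene body windows, where they then ranked 1093rd, 877th and 2739th. Without it the ranks per kb were 430th, 31st and 80th, and those within 5 kb of the gene ends were 12th, 8th and 56th. With any other H3K27ac library left out, the 3 genes stayed within the first 8 by that measure. In Smc1, over gene body windows, the genes ranked 4650th, 4068th and 5518th, at means of 69.6, 78.1 and 59.95 CPM against 28.7 for the median gene.

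The strongest H3K27ac contact at the 3 genes was the same in all 4 libraries. It joined a segment just beyond the higher end of Ripor1, within chr8:105622345-105625323, to the segment that holds the Ctcf start, within chr8:105633513-105638442. The first segment overlaps no protein-coding gene of the annotation and lies in the 5 kb margin of Ripor1. The segment at the Ctcf start also holds the listed start of Gm5914, annotated in the opposite direction. The segments lie 12.03 to 12.6 kb apart between midpoints.

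This contact held 31 and 26 read pairs in the NOD libraries, against 64 and 23 in the BL6 libraries. Among all listed H3K27ac interactions it ranked 20th of 158595 and 63rd of 191929 in NOD, against 1st of 168616 and 34th of 451572 in BL6. Short contacts hold more read pairs, and among interactions of 10 to 15 kb it ranked 7th of 907 and 21st of 699 in NOD, against 1st of 581 and 24th of 1467 in BL6. The q-values in the authors' deposited tables were 1.2e-11 and 0.0030 in NOD, and 0 and 0.029 in BL6. No Smc1 table listed it, F1 included. Smc1 NOD library 1 did list a contact of 4 read pairs from the first segment to another anchor inside Ctcf, 3.5 kb from its lower end. Since it was singled out as the strongest at the 3 genes, these ranks are a description.

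The intergenic segment also carried some of the highest H3K27ac anchor reads of each library. It had 2132 and 4166 anchor reads in NOD, against 2831 and 2790 in BL6, which ranked 41st of 142336 and 18th of 188370 anchors in NOD and 11th of 159740 and 36th of 324215 in BL6. The Ctcf start segment had 1596 and 2726 in NOD, against 2261 and 2242 in BL6, ranked 114th and 182nd in NOD and 50th and 216th in BL6. In Smc1 an anchor at the intergenic segment was listed only in NOD library 1, with 199 reads, and in BL6 library 1, with 202. There 79.8% and 93.9% of the library's anchors ranked at or above it, in NOD library 1 and BL6 library 1.

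In 3 of the 4 H3K27ac libraries most Ripor1 read pairs came through this intergenic segment, and in BL6 library 2 most did not. Interactions of the segment held 69 and 119 read pairs in NOD, out of 97 and 185 for Ripor1, against 206 and 38 in BL6, out of 265 and 200. With the 5 kb margin left off, the mean H3K27ac level of Ripor1 was 101 CPM, against 348 with it. The segment at the RefSeq-listed Ripor1 start shown above had no listed interaction of 10 kb or more in H3K27ac NOD library 1. It held 4 read pairs in NOD library 2, and 16 and 28 in the BL6 libraries. Its highest anchor count was 2201 reads, in NOD library 2.

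Of 30 merged H3K27ac anchor regions across the span, 9 were listed in all 4 libraries and 11 in a single library. Besides the 2 segments above, those in all 4 included a region at the lower end of Carmil2 (chr8:105685224-105687943) and a region over the starts of Acd and Pard6a (chr8:105699342-105704551). Acd encodes a component of the telomere-capping shelterin complex, and Pard6a a cell polarity protein. Contacts other than the strongest were less even across libraries. The Ctcf start met the lower end of Carmil2 with 11 read pairs in NOD library 1 and 23 in BL6 library 1, and was not listed in NOD library 2 or BL6 library 2. The intergenic segment met the Acd and Pard6a region with 14 read pairs in NOD library 2 and 23 in BL6 library 1, and was not listed in the other 2. Every pair of these 9 regions other than the strongest was listed in at most 2 H3K27ac libraries.

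**Figure D2:**
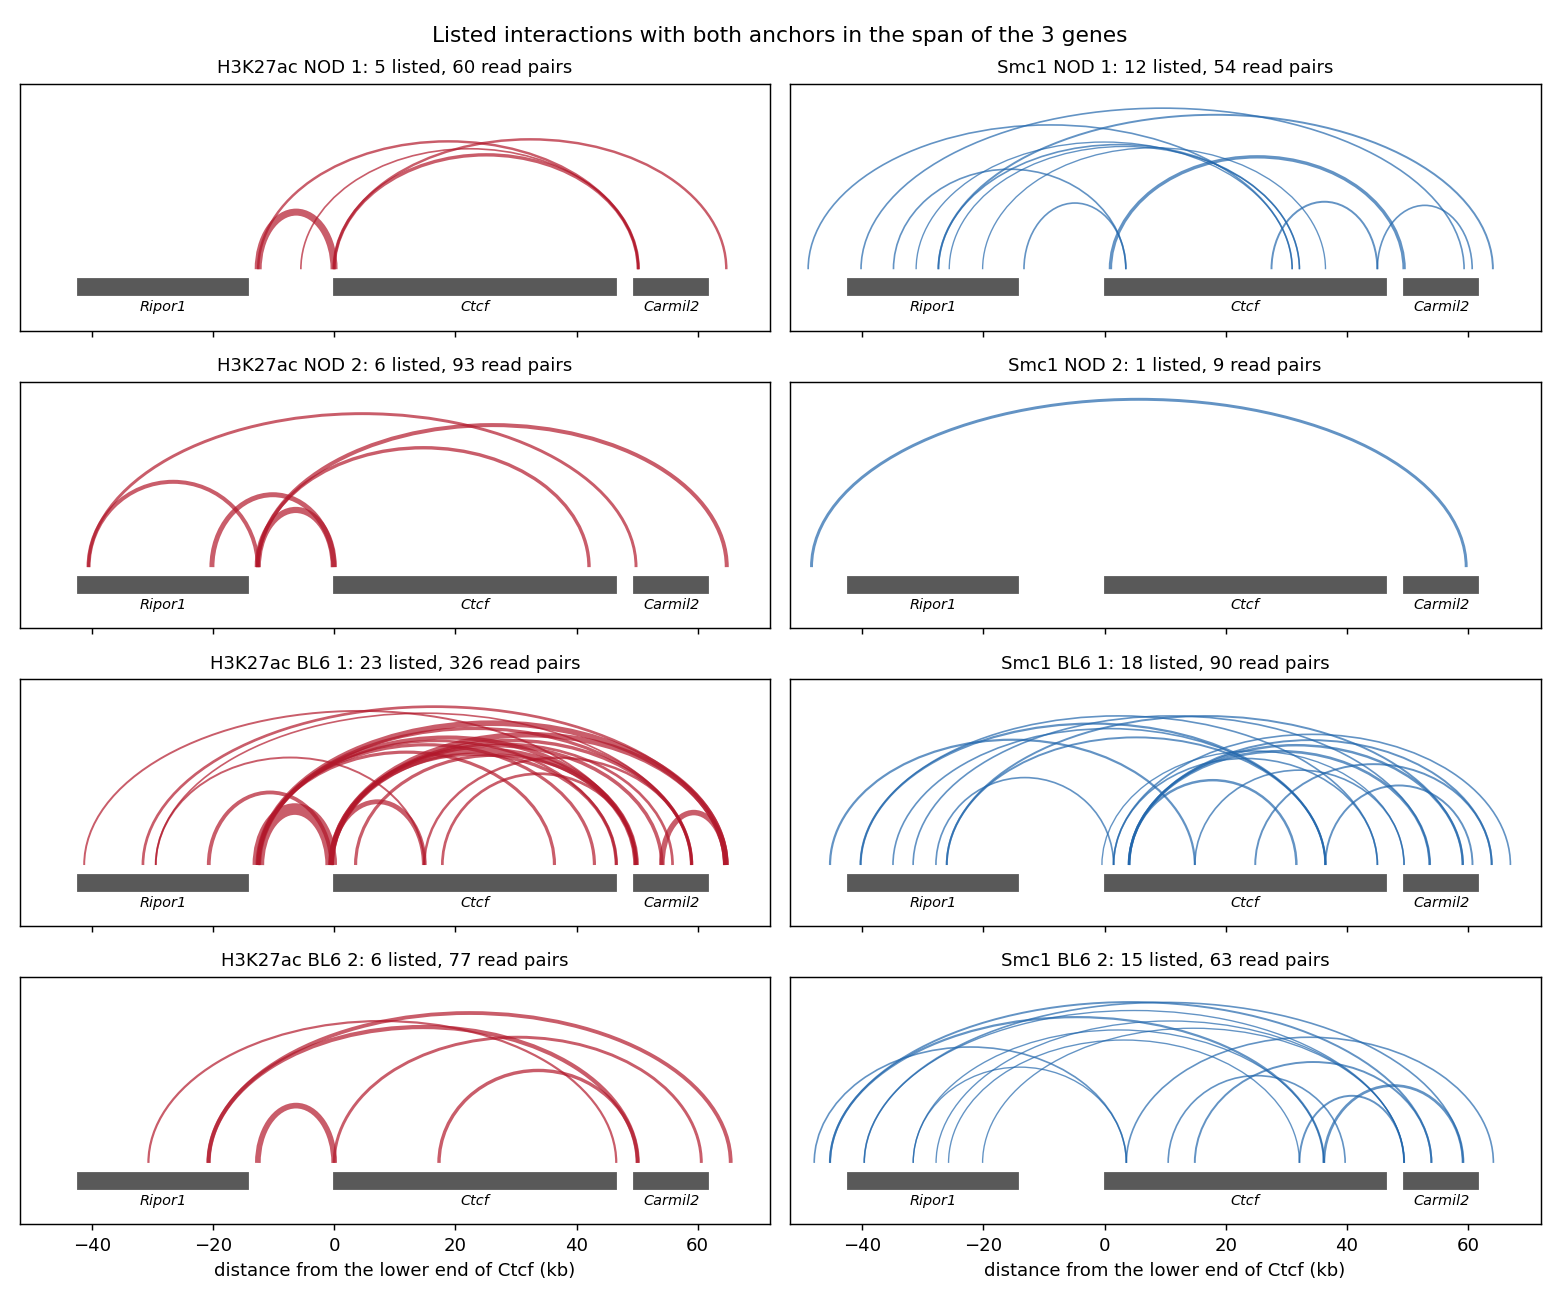
Each arc is a listed interaction with both anchors in the span of the 3 genes, drawn between anchor midpoints as distance from the lower end of Ctcf in kb, with line width growing with its read pairs; H3K27ac libraries are on the left and Smc1 libraries on the right, gene bodies are grey boxes, and arc height only separates arcs. The short, thick arc just left of Ctcf is present in all 4 H3K27ac libraries and in no Smc1 library. Smc1 NOD library 1 holds a thinner arc of 4 read pairs from -13.3 to 3.5 kb. H3K27ac BL6 library 1 holds 23 interactions against 5 to 6 in the other H3K27ac libraries.

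Contacts from one of the 3 genes to another made up a larger share of their H3K27ac than of their Smc1 read pairs. In H3K27ac the share was 30.6% (60 of 196 read pairs, exact 95% binomial interval 24.2 to 37.6) and 26.8% (79 of 295) in NOD, against 50.8% (286 of 563, 46.6 to 55.0) and 22.1% (77 of 348) in BL6. In Smc1 it was 16.3% (54 of 332) and 6.16% (9 of 146, 2.86 to 11.4) in NOD, against 17.9% (83 of 463) and 15.4% (59 of 384) in BL6. The F1 library gave 13.4% (19 of 142) when mapped to the NOD genome, and 14.8% (24 of 162) when mapped to the BL6 genome. All 4 H3K27ac shares stood above all Smc1 shares, and the intervals cover counting error only. The genes were chosen for high H3K27ac level, to which read pairs joining them add, so the choice favours this order. The share in other groups of neighbouring genes was not computed.

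That order was lost without the intergenic segment. With its interactions left out, an alternative chosen after the values were seen, the H3K27ac shares were 17.3% and 15.9% in NOD and 41.2% and 17.4% in BL6, and the Smc1 shares were 15.3% and 6.16% in NOD and 18.3% and 15.4% in BL6. With gene bodies alone, which drops the margins of all 3 genes, the H3K27ac shares were 8.46% and 14.8% in NOD and 24.2% and 14.8% in BL6, and the Smc1 shares were 14.6% and 0% in NOD and 17.4% and 14.5% in BL6. The 0% was 0 of 100 read pairs, with an upper bound of 3.62%, and the antibodies overlapped here too. The mean H3K27ac share with margins was 32.6% with all libraries and 26.5% without BL6 library 1.

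By gene pair, Ctcf and Ripor1 were joined by 38 and 65 H3K27ac read pairs in NOD, against 129 and 44 in BL6. Ctcf and Carmil2 were joined by 22 and 0 listed read pairs in NOD, against 112 and 20 in BL6, and Ripor1 and Carmil2 by 7 and 23 in NOD, against 72 and 34 in BL6. In Smc1, Ctcf and Carmil2 were joined by 20 and 0 listed read pairs in NOD, against 45 and 22 in BL6. Ctcf and Ripor1 were joined by 25 and 0 in NOD, against 29 and 28 in BL6. Smc1 NOD library 2 listed a single interaction among the 3 genes, of 9 read pairs, between Ripor1 and Carmil2.

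**Figure D3:**
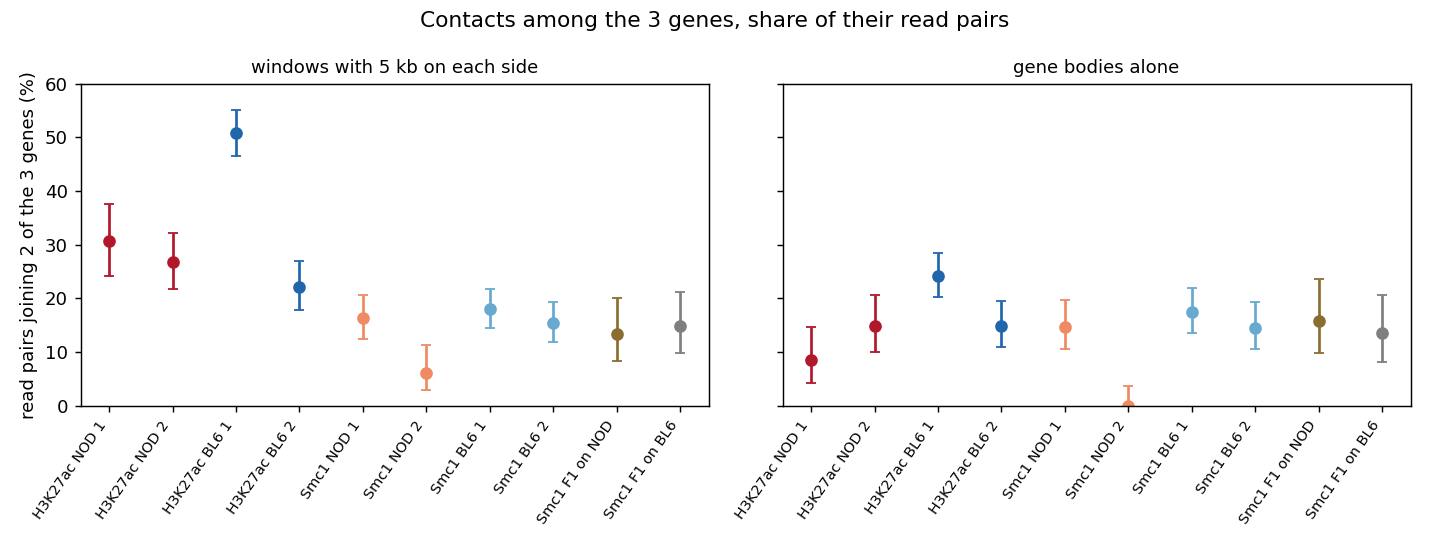
Share of read pairs at the 3 genes that join 2 of them, in percent, for each library (points), with exact 95% binomial intervals as bars, for windows with 5 kb on each side (left) and gene bodies alone (right). On the left all H3K27ac points, 22.1% to 50.8%, lie above all Smc1 points, 6.16% to 17.9%, and on the right they overlap.

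Partners outside the 3 genes lay mostly at higher coordinates, past Carmil2. In H3K27ac 62.2% and 66.8% of the read pairs went there in NOD, against 40.9% and 69.5% in BL6, while 7.14% and 1.69% in NOD and 1.24% and 8.33% in BL6 went to lower coordinates. In Smc1 71.1% and 76.0% went higher in NOD, against 71.3% and 72.4% in BL6, while 12.7% and 17.8% in NOD and 9.29% and 11.2% in BL6 went lower. The F1 library gave 64.1% higher and 22.5% lower by the NOD mapping, and 65.4% higher and 19.8% lower by the BL6 mapping. This direction, seen in all 10 tables, was picked out after the values were known.

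The number of anchors on offer was near even. Within 500 kb on the higher side, H3K27ac NOD libraries listed 60 and 98 anchors, against 66 and 135 in BL6, and on the lower side NOD listed 46 and 68, against 54 and 124 in BL6. In Smc1 the higher side held 120 and 95 anchors in NOD and 133 and 105 in BL6, and the lower side 118 and 90 in NOD and 119 and 110 in BL6. Within those same 500 kb, the higher side held 90.7% and 98.2% of the H3K27ac read pairs in NOD and 96.8% and 91.5% in BL6. It held 86.5% and 74.0% of the Smc1 read pairs in NOD and 90.4% and 86.2% in BL6.

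Ripor1, at the lower edge, was the most one-sided of the 3. Of its read pairs with partners outside its own window, 97.9% and 98.8% went higher in NOD H3K27ac and 100% and 98.0% in BL6 H3K27ac. In Smc1 94.8% and 96.8% went higher in NOD, against 96.7% and 96.1% in BL6. Among genes with at least 40 such read pairs, 0.439% to 3.40% across the 10 tables were as one-sided in either direction. Ctcf was closer to even in H3K27ac, at 53.5% and 52.4% higher in NOD and 51.5% and 56.2% in BL6, and leaned higher in Smc1, at 69.3% and 67.3% in NOD and 76.3% and 65.9% in BL6. Carmil2 had 48.4% and 62.9% higher in NOD H3K27ac and 26.3% and 41.2% in BL6 H3K27ac.

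On the higher side the contacts thinned out beyond about 650 kb from the lower end of Ctcf, an edge chosen after the values were seen. Between 300 and 650 kb, H3K27ac held 43 and 59 read pairs in NOD and 120 and 50 in BL6. Between 650 and 1000 kb it held 4 and 6 in NOD and 9 and 12 in BL6, with 39 and 47 anchors on offer in NOD and 46 and 84 in BL6, against 42 and 69 in NOD and 51 and 95 in BL6 in the nearer stretch. Smc1 held 97 and 50 read pairs in NOD and 119 and 115 in BL6 in the nearer stretch, and 6 and 12 in NOD and 9 and 12 in BL6 in the farther one. F1 listed 41 (NOD genome) and 47 (BL6 genome) in the nearer stretch, and no interaction in the farther one on either genome. The fall over these distances at other genes was not computed, so no boundary is read from it.

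Contacts of 500 kb or more were 16.3% and 12.9% of the read pairs at the 3 genes in NOD H3K27ac and 6.04% and 22.7% in BL6 H3K27ac. Over the whole libraries they were 47.5% and 57.1% in NOD and 56.5% and 58.2% in BL6. In Smc1 they were 24.1% and 36.3% at the 3 genes in NOD and 20.5% and 21.4% in BL6, with 46.7% and 55.4% in NOD and 55.0% and 52.6% in BL6 over the whole libraries. The 3 genes thus had a smaller long-range share than their library in all 8 of these libraries.

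**Figure D4:**
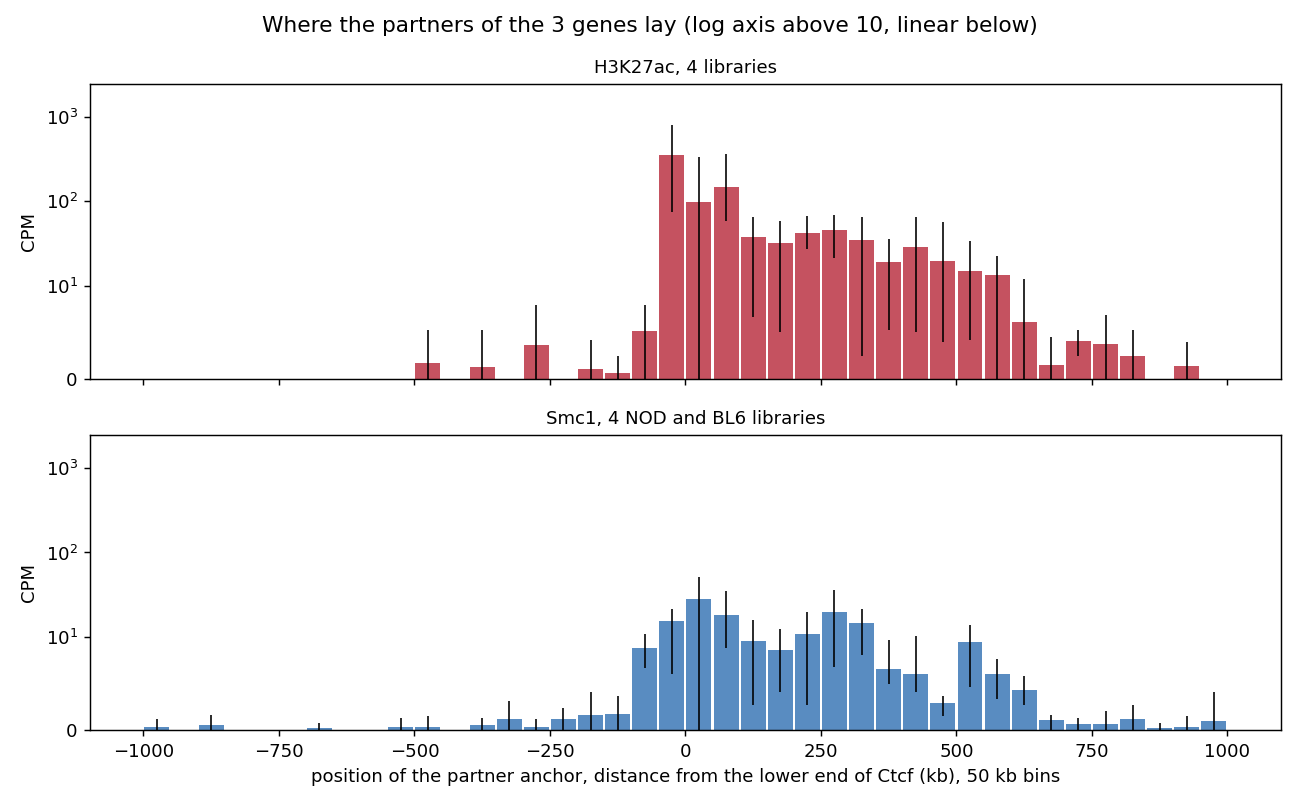
Mean CPM (bars) with the lowest and highest library (lines), by position of the partner anchor in 50 kb bins as distance from the lower end of Ctcf in kb, for the 4 H3K27ac and the 4 NOD and BL6 Smc1 libraries; the vertical axis is logarithmic above 10 and linear below, and contacts inside the span count at each of their ends. Partners fill the higher side out to about 650 kb in both panels. On the lower side H3K27ac partners are sparse beyond the bin next to Ctcf, which holds Ripor1. The Smc1 libraries also hold 6.61 to 10.8 CPM in the bin that starts at -100 kb, and less beyond it.

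Of 27 protein-coding neighbours within 250 kb of the 3 genes, 13 shared interactions with them in all 4 H3K27ac libraries and 12 in all 4 NOD and BL6 Smc1 libraries. The 5 with none in H3K27ac, namely Plekhg4, Kctd19, Lrrc36, Tppp3 and Hsd11b2, all lie at lower coordinates than Ripor1. The 10 with most shared H3K27ac interactions were Pskh1, Ranbp10, Acd, Pard6a, Gfod2, Slc12a4, Cenpt, Enkd1, Edc4 and Lcat, and all lie at higher coordinates. The windows of Acd, Pard6a and Enkd1 overlap that of Carmil2, so part of their sharing follows from position.

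Pskh1, a protein serine kinase gene, shared most interactions, 23 over the 4 H3K27ac libraries. It shared 5 and 26 read pairs in NOD H3K27ac, against 30 and 35 in BL6 H3K27ac, and 27 and 6 in NOD Smc1, against 60 and 27 in BL6 Smc1. Ranbp10, which encodes a Ran-binding protein, shared 21 and 35 in NOD H3K27ac and 36 and 9 in BL6 H3K27ac. Gfod2, an oxidoreductase-domain gene, shared 19 and 15 in NOD and 13 and 56 in BL6. Slc12a4, a potassium-chloride cotransporter gene, shared 11 and 15 in NOD and 29 in BL6 library 1, and was not listed in BL6 library 2. Cenpt, a centromere gene, Edc4, a gene of mRNA decapping, and Lcat, which encodes a plasma cholesterol-esterifying enzyme, shared 5 to 38 read pairs in each H3K27ac library. Acd and Pard6a share their anchors and so had equal values, 7 and 14 in NOD and 113 and 47 in BL6. Scaled to library depth, both NOD H3K27ac values of Edc4 lay above both BL6 values, at 31.5 and 32.1 CPM in NOD against 11.3 and 9.97 CPM in BL6. Those of Acd, Pard6a and Enkd1 lay below, Acd with 18.4 and 28.1 CPM in NOD against 256 and 39.0 CPM in BL6. The other 6 overlapped. Acd, Pard6a and Enkd1 lie in the same anchor region and are not separate observations, and the Edc4 values rest on 5 to 16 read pairs. The share of all genes that separate in this way with 2 libraries per strain was not computed. No strain difference is therefore read from these orders.

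Smc1 was the measure that did not choose the genes, and its NOD and BL6 libraries were compared with edgeR's quasi-likelihood test across all genes. Of 18095 genes tested, 34 (0.188%) had a Benjamini-Hochberg adjusted p under 0.05, 30 higher and 4 lower in NOD, and 648 had an unadjusted p under 0.05. None of the 3 genes passed. The log2 fold change of NOD over BL6 was -0.28 ± 0.47 (SE) for Ctcf, -0.39 ± 0.40 for Ripor1 and -0.74 ± 0.38 for Carmil2, with unadjusted p-values of 0.56, 0.35 and 0.080 in the edgeR test and an adjusted p of 0.999 for each. Each strain had 1 biological replicate here, so the p-values measure technical spread between its libraries, and NOD and BL6 tables also differ in mapping genome, which cannot be told apart from strain. At this design, 14% of simulated 2-fold, 56% of 4-fold and 86% of 8-fold changes among 18095 genes were called, so most 2-fold changes were missed. The changed genes were drawn at random from those tested, so the shares at the level and spread of the 3 genes can differ.

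The sign for Ctcf and Ripor1 rested on single libraries. Without NOD library 2 the log2 fold change was 0.22 for Ctcf and 0.02 for Ripor1, and without BL6 library 1 it was 0.17 for Ctcf and -0.02 for Ripor1. Without NOD library 1, Ctcf stood at -1.08, Ripor1 at -0.95 and Carmil2 at -1.03, with edgeR adjusted p-values of 0.18, 0.21 and 0.20. Carmil2 stayed negative whichever library was left out, between -1.03 and -0.43. The F1 library, mapped on each genome, gave Carmil2 37.9 CPM (30 read pairs) by the NOD mapping and 58.8 (45) by the BL6 mapping, with no replicate. Both values come from the same library, so they do not compare the strains. In the region chr8:105699342-105704551, which reaches into the Carmil2 window, F1 anchor reads were listed only by the BL6 mapping, with 540.

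**Figure D5:**
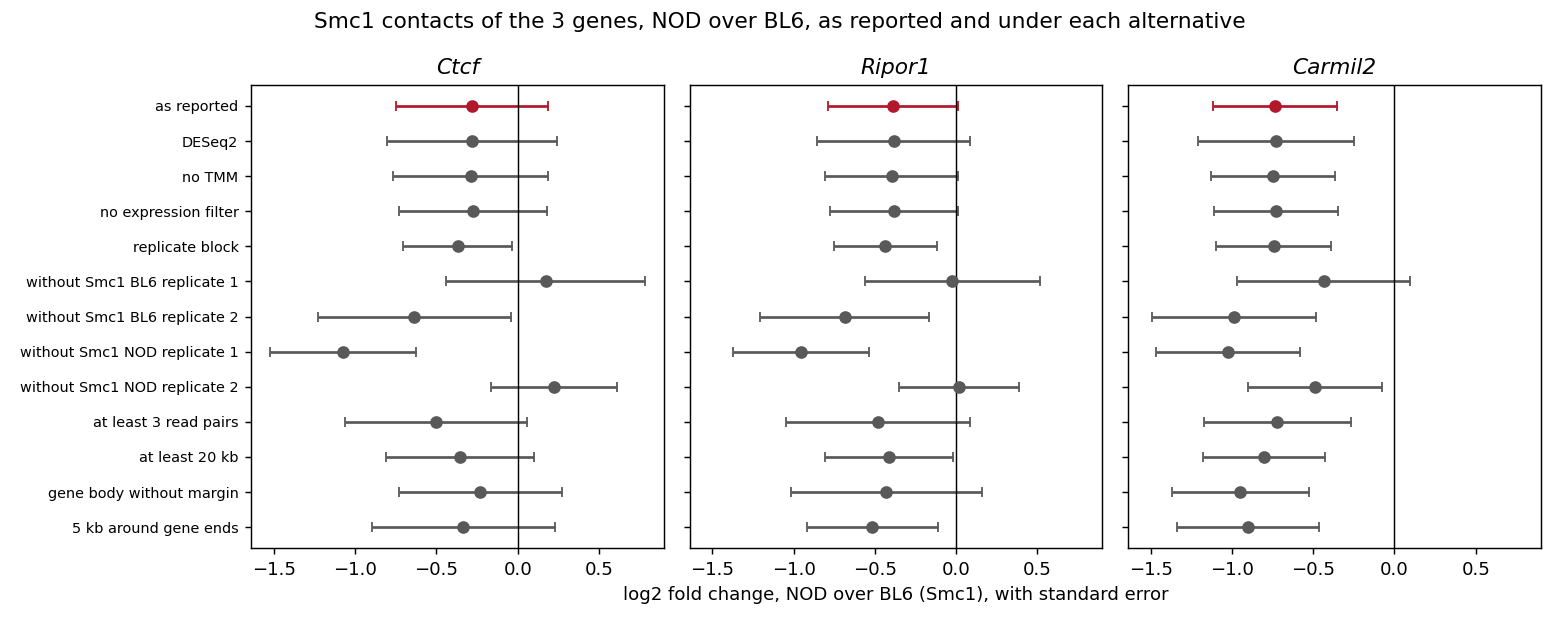
Log2 fold change of Smc1 contacts, NOD over BL6 (horizontal axis), with its standard error, for Ctcf, Ripor1 and Carmil2, as reported (top) and under each alternative. Carmil2 lies below 0 throughout, at -0.74 as reported, while Ctcf and Ripor1 cross 0 when NOD library 2 is left out.

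Among pairs of 25 kb bins, 0 of 5673 tested (0%) passed edgeR's test with Benjamini-Hochberg adjustment, while DESeq2 called 143, and 285 had an unadjusted p under 0.05 in edgeR. Of these pairs 8 touched the windows of the 3 genes, and 0 had an unadjusted p under 0.05. All 8 had a lower fitted value in NOD, as did 52.8% of all pairs tested, and pairs that share a bin or a library are not independent. The smallest unadjusted p among the 8 was 0.095 in the edgeR test, for the bins chr8:105575001-105600000 and chr8:105925001-105950000. The first bin reaches the lower end of Ripor1, at 105594087, but most of it lies below that gene. The second holds the stretch from Pskh1 to Slc12a4. This bin pair had 5 and 9 read pairs in NOD, against 37 and 21 in BL6, a log2 fold change of -1.52 ± 0.76 (SE). Bins extend past the windows, so these read pairs can include contacts of none of the 3 genes.

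For 2 lists of genes with related roles, the Smc1 counts stand beside 0.188% called over all genes, which comes to less than 1 gene in a list of this size. Of 16 genes of loop architecture, among them Ctcf and the cohesin subunits, 13 were tested, and 0 passed edgeR's test, with 6 positive and 7 negative fold changes and a median log2 fold change of -0.07. Of 11 genes of CD28 costimulation, 11 were tested and 0 passed, with 6 positive and 5 negative and a median of 0.04. The median over all genes tested was 0.00.

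Across the 8 NOD and BL6 libraries of both antibodies, the 3 genes followed each other in level, with a Pearson r on log2(CPM + 5) of 0.98 between Ctcf and Ripor1, 0.95 between Ctcf and Carmil2 and 0.92 between Ripor1 and Carmil2. The genes share read pairs and the libraries share their antibody, so these values are descriptive. Among 3344 genes with a mean of at least 100 CPM, those more than 2 Mb away whose levels followed Ctcf most closely were Ago2 (r = 0.98), Unkl, Cic, Rapgef3 and Phf2 (0.98 each). Ago2, on chromosome 15, had 209.97 and 203 CPM in NOD H3K27ac and 356 and 141 in BL6 H3K27ac. Phf2, on chromosome 13, had 241 and 265 in NOD and 547 and 174 in BL6. In both, as in Ctcf, H3K27ac BL6 library 1 was highest and BL6 library 2 lowest among the H3K27ac libraries. Both genes were picked for likeness to Ctcf over these same libraries, so a shared order largely follows from the choice.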

How the data were processed

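Per the file headers, the authors deposited for each library a table of interactions with counts of read pairs, counts of reads at each anchor, and a p-value and a q-value per interaction. Tools given in the submitters' processing notes, without their roles, are MACS, HiC-Pro and Juicer 1.7.6, and the build is GRCm38. Per the names of the deposited tables, NOD tables were mapped to the NOD genome and shifted to BL6 coordinates, and F1 comes in both forms, which makes 10 tables of 9 libraries. The tables hold interactions of at least 2 read pairs, up to 2 Mb, with q up to 0.05, as checked on the values.

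Anchors out of coordinate order were swapped, and midpoints had to lie at least 10 kb apart. Sums of read pairs were taken for every protein-coding gene (body and 5 kb on each side, GRCm38.p6 RefSeq table) and per pair of 25 kb bins, and an unlisted interaction counted as 0 in sums and fits. Levels are read pairs per 1000000 used read pairs (CPM). Smc1 NOD and BL6 libraries were compared with edgeR 4.0.16 in R 4.3.3 (TMM, default expression filter, robust quasi-likelihood test, Benjamini-Hochberg threshold 0.05), with DESeq2 1.42.0 as an alternative. The gene test was checked on simulated counts. These were drawn from the mean count of each gene over the 4 libraries, scaled to library size, with the dispersion trend of the fit. Python 3.11.15 with pandas 2.3.3 and scipy 1.17.1 did the rest.

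The 3 genes, the gene lists and the named-gene rule were chosen with earlier results of these data known. The rule named the 3 genes, the 10 neighbours within 250 kb with most shared H3K27ac interactions, the 5 genes most like Ctcf, and list members with an adjusted p under 0.05. A further gene list is not reported here. Other genes named were chosen after their values were seen. Alternatives covered the test, normalization, filter, replicate block, left-out libraries, read-pair and distance minimum, gene window and bin size.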

Additional observations from a re-analysis of the deposited data

Results flagged for a closer look

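Interactions under 10 kb, which entered no comparison, were listed at the 3 genes in 9 of the 10 tables above 3 read pairs. H3K27ac held 9 and 89 such read pairs in NOD libraries 1 and 2, against 77 and 102 in BL6 libraries 1 and 2. Smc1 held 21 in NOD library 2, with none listed in NOD library 1, against 35 and 97 in BL6 libraries 1 and 2. F1 had 9 by the NOD mapping and 27 by the BL6 mapping. No sample served as a control for such contacts.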

How the results depend on the processing

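Of 95 recomputed values, 73 were labelled the same by a loose rule. A fold change had to keep its direction and its side of the threshold, and a count of calls had to stay within 1.5-fold. A mean level or share had to move by less than the SD between libraries. That SD is wide in H3K27ac. The fall of Carmil2 from 254 to 129 CPM without BL6 library 1 counted as the same, at an SD of 251. The 73 therefore says little about how stable the levels are. The cause of the other changes was not tested. The count of 34 genes in Smc1 was 15 with at least 3 read pairs, 14 with gene bodies alone, 17 with 5 kb around gene ends, and 0 to 805 when a library was left out, 805 without NOD library 1. The 0 bin pairs became 143 with DESeq2, 17 with the replicate block and 0 to 65 when a library was left out. The technical replicates share only a number across strains, and the NOD table names carry other replicate numbers than the titles (correlation of deviations 0.22, equal by construction with 2 per group), and with the replicate block 50 genes were called and the members stood at -0.37, -0.44 and -0.74 for Ctcf, Ripor1 and Carmil2, none of them called. The log2 fold change turned positive for Ctcf at 0.17 without BL6 library 1 and 0.22 without NOD library 2, and for Ripor1 at 0.017 without NOD library 2. Left-out libraries gave -1.08 to 0.22 for Ctcf, -0.95 to 0.02 for Ripor1 and -1.03 to -0.43 for Carmil2. With at least 3 read pairs, mean H3K27ac levels were 685, 662.5 and 505.5 CPM for Ctcf, Ripor1 and Carmil2, and mean Smc1 levels 113 and 93.5 for Ripor1 and Carmil2, since the totals shrink. With gene bodies alone, Ripor1 stood at 101 in H3K27ac and 40.3 in Smc1. Contacts among the 3 genes averaged 15.6% in H3K27ac with gene bodies alone, and 19.6% in Smc1 with at least 3 read pairs. Leaving out H3K27ac libraries or the intergenic segment was added after the data were seen. Interactions of 2 read pairs sit at the depth limit of the tables.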
